A study of Homo sapiens with 24 samples.

Results

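The unfolded protein response and the chaperones of the endoplasmic reticulum (ER) were examined as a group of 35 listed genes, of which 33 had a probe set naming them alone. DNAJB11 and SYVN1 had none and were not measured. Each gene was represented by the probe set with the highest mean over the 24 arrays, out of 11940 genes so represented. For 16 of the 33 genes this was the only probe set, and the other 17 had 31 further probe sets, which are given as a check. The samples were A2780 ovarian cancer cells in culture, 12 arrays of a line transfected with pcDNA (an empty vector) and 12 of a line transfected with the small GTPase Rab25. All cells, the untreated ones included, had been starved of serum for 8 h. They then stayed starved (4 arrays per line) or received epidermal growth factor (EGF, 10 ng/ml), insulin-like growth factor (IGF, 10 ng/ml), 5% fetal bovine serum (FBS) or 5 ng/ml of transforming growth factor beta (TGF beta), with 2 arrays per line and treatment. Each group was split equally between 2 experiments. The protocol in the labels gives an exposure of 8 h for experiment 1 and 24 h for experiment 2, whereas the source names give 24 h for both, and the time of the starved controls beside the treated cells is not given. Batch and exposure therefore cannot be told apart wherever the experiments are compared.

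Proteins that enter the secretory pathway fold in the ER with the help of chaperones of the HSP70 and HSP90 families, of lectins that hold unfinished glycoproteins, and of enzymes that form disulphide bonds. When unfolded protein builds up, the membrane sensors IRE1 (gene ERN1), PERK (EIF2AK3) and ATF6 raise the transcription of these genes and of the machinery that returns misfolded proteins to the cytosol for degradation, and PERK lowers protein synthesis. XBP1, spliced by IRE1, and the cleaved ATF6 act through the ER stress response elements ERSE and ERSE-II in the promoters of many of these genes.

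Promoters of members that carry such an element are shown because XBP1 and ATF6 are known to act through these elements. Windows from 250 bases before to 50 bases after each transcription start, from RefSeq on GRCh38.p14, were available for 30 of the 33 genes and none for DERL1, PDIA3 and SEC24D. ERSE (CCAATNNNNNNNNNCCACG) and ERSE-II (ATTGGNCCACG) were searched on both strands, and capitals mark the fixed letters of each match. The order below is HSPA5 (chr9:125241379-125241421, minus strand), XBP1 (chr22:28800591-28800633, minus), HERPUD1 (chr16:56932013-56932047, plus), SDF2L1 (chr22:21642102-21642136, plus), HYOU1 (chr11:119057262-119057402, minus) and CALR (chr19:12938372-12938414, plus).
HSPA5: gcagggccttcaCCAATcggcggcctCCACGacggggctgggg
XBP1: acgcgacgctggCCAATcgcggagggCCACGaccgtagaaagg
HERPUD1: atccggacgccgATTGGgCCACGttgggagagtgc
SDF2L1: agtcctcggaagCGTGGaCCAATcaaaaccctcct
HYOU1: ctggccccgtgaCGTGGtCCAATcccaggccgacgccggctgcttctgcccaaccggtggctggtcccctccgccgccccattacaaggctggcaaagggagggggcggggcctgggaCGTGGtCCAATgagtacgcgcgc
CALR: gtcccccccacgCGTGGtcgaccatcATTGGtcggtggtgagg
HSPA5 and XBP1 hold 1 ERSE each, and CALR 1 ERSE in the reverse orientation. HERPUD1 holds 1 ERSE-II, SDF2L1 1 ERSE-II in the reverse orientation, and HYOU1 2 copies of ERSE-II, both in the reverse orientation. ERSE was present in 7 of the 30 members with a window (23.3%; the others are HSP90B1, CANX, PDIA6 and SERP1), in 14 of 9593 array genes with a window (0.146%) and in 27 of all 35116 windows (0.0769%). ERSE-II was present in 3 members (10%), in 14 array genes (0.146%) and in 19 windows (0.0541%). The core TGACGTG of the unfolded protein response element was found in HYOU1, where it overlaps the first ERSE-II, and in SEC61A1 (6.67% of members, 3.34% of array genes, 1.97% of windows). These matches describe the sequence and were not tested as sites in these cells.

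RAB25 itself matched the labels on every array, with log2 values of 4.90 to 5.60 on the 12 pcDNA arrays and 8.18 to 9.08 on the 12 Rab25 arrays. Of 8 markers of ovarian cancer epithelium, PAX8, KRT8, KRT18 and FOLR1 lay above the median gene on every array. WT1, MSLN, EPCAM and MUC16 were low on most arrays, with medians of 6.81, 6.67, 5.14 and 4.91 outside the Rab25 FBS arrays, and MUC16 was near background. The 2 arrays of Rab25 cells with FBS stood apart. Of 6 stromal markers, 5 were higher on each of them than on all 22 other arrays, with COL3A1 at 12.76 in experiment 1 and 11.00 in experiment 2 against 5.04 to 6.60 elsewhere, while DCN (11.81 and 11.84) lay inside the range of the others. All 6 were above the median gene on the array of experiment 1 and 4 on that of experiment 2, against 1 or 2 on the other arrays. The log2 of the summed stromal signal was 14.40 and 13.04 there and 11.7 to 12.6 in the other groups. Of 7 macrophage and blood markers, 7 and 6 were above all other arrays (CD74 9.66 and 7.66 against 5.36 to 5.97). The same held for 3 and 2 of 7 breast markers (SCGB2A2 8.57 and 8.84 against 5.28 to 5.90; KRT5, KRT14, KRT15 and LTF were inside the range) and for 2 and 2 of 6 adipocyte markers (FABP4 7.54 and 10.42 against 5.43 to 7.17; ADIPOQ, PLIN1 and LEP were inside it). EPCAM was raised only on the first of these arrays (8.49). The FBS arrays of pcDNA cells had a summed stromal signal of 11.8 to 12.0. The counts of called genes with FBS within each experiment are therefore also given from pcDNA cells, without the 2 Rab25 arrays; the comparison of the FBS arrays between the experiments was not run that way.

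With FBS in experiment 1, 30 of the 33 genes fell and none rose, by limma at an adjusted p under 0.05, with 34.1% of all genes called (17.1% lower, 17% higher). The falls reached 6.51-fold for DNAJB9, 3.74-fold for HERPUD1 and 3.10-fold for HYOU1, and the median log2 change of the 33 was −0.62 against −0.02 over all genes. Only CALR, MBTPS1 and XBP1 were not called. The 2 FBS arrays lay below all 10 serum-free arrays of the experiment for 27 genes, which was the case for 12.9% of all genes. From bulk RNA, fewer cells that express a gene and less RNA per cell cannot be told apart. Without the Rab25 FBS arrays, 29 genes were called lower and none higher in pcDNA cells (26.5% of all genes called). That response rests on 1 FBS array per experiment, and its spread is taken from the other groups. The actin 3′ minus 5′ probe difference, a sign of RNA integrity, was 0.72 to 0.74 on the FBS arrays and 0.76 to 1.17 on the serum-free arrays. The same difference for GAPDH overlapped (0.24 to 0.30 and 0.19 to 0.43), and the part of RNA quality in the result was not tested.

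**Figure D1:**
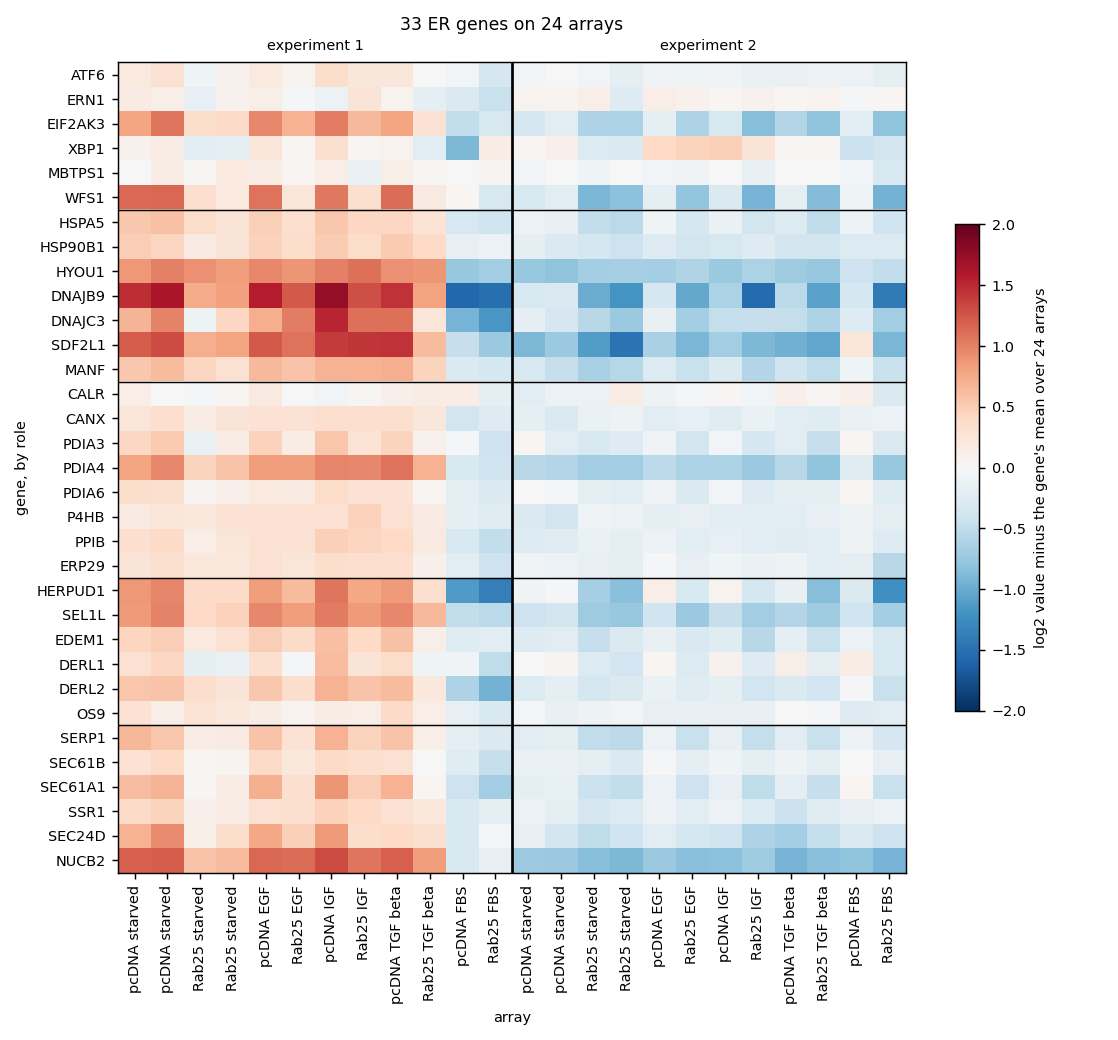
Heat map of the 33 genes (rows, grouped by role) on the 24 arrays (columns, by experiment, treatment and line), coloured by the log2 value minus the gene's mean over all arrays, with colours limited to 2 on either side. The serum-free arrays of experiment 1 are high for most genes, and its 2 FBS arrays are near those of experiment 2 by their median but not in every gene.

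Among the chaperones, all 7 of the HSP70, HSP90 and J-domain group fell, with a median change of −1.54. DNAJB9 (ERdj4), a J-domain cochaperone of HSPA5, lay at 11.67 to 12.70 (median 12.31) on the 10 serum-free arrays and at 9.37 in pcDNA and 9.43 in Rab25 cells with FBS. The groups were more than 2 log2 units apart, and the fitted change was −2.70 ± 0.17 (SE; limma adjusted p 2.09e-07). Its second probe set changed by −3.57. HYOU1 (ORP170), the nucleotide exchange factor of HSPA5, lay at 13.38 to 13.64 (median 13.45) without serum and at 11.78 and 11.85 with FBS. This was the smallest adjusted p of the group, with a change of −1.63 ± 0.07 (limma adjusted p 9.89e-09). SDF2L1, a partner of ER J-domain proteins, lay at 9.97 to 10.77 (median 10.55) without serum and at 8.87 and 8.58 with FBS, a change of −1.61 ± 0.16 (limma adjusted p 9.70e-06). DNAJC3 (p58IPK), a J-domain protein that also acts on PERK signalling, lay at 8.42 to 10.05 (median 9.38) without serum and at 7.59 and 7.35 with FBS. The serum-free arrays of DNAJC3 were more spread than those of the others, and its change was −1.54 ± 0.19 (limma adjusted p 5.20e-05).

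The most familiar members of the group moved less. HSPA5 (BiP), the ER's HSP70 and the usual marker of the response, lay at 14.50 to 14.83 (median 14.67) without serum and at 13.94 and 13.86 with FBS. The groups did not overlap, and HSPA5 fell by 0.79 ± 0.07 on the log2 scale (1.73-fold; limma adjusted p 1.91e-06). HSP90B1 (GRP94), the ER's HSP90, lay at 13.61 to 13.95 (median 13.84) against 13.26 and 13.31, a fall of 0.49 ± 0.06 (limma adjusted p 8.34e-05). MANF, a secreted protein induced in stressed cells, lay at 12.90 to 13.32 (median 13.20) against 12.30 and 12.24, a fall of 0.80 ± 0.08. All 3 were lower on both FBS arrays than on any serum-free array.

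**Figure D2:**
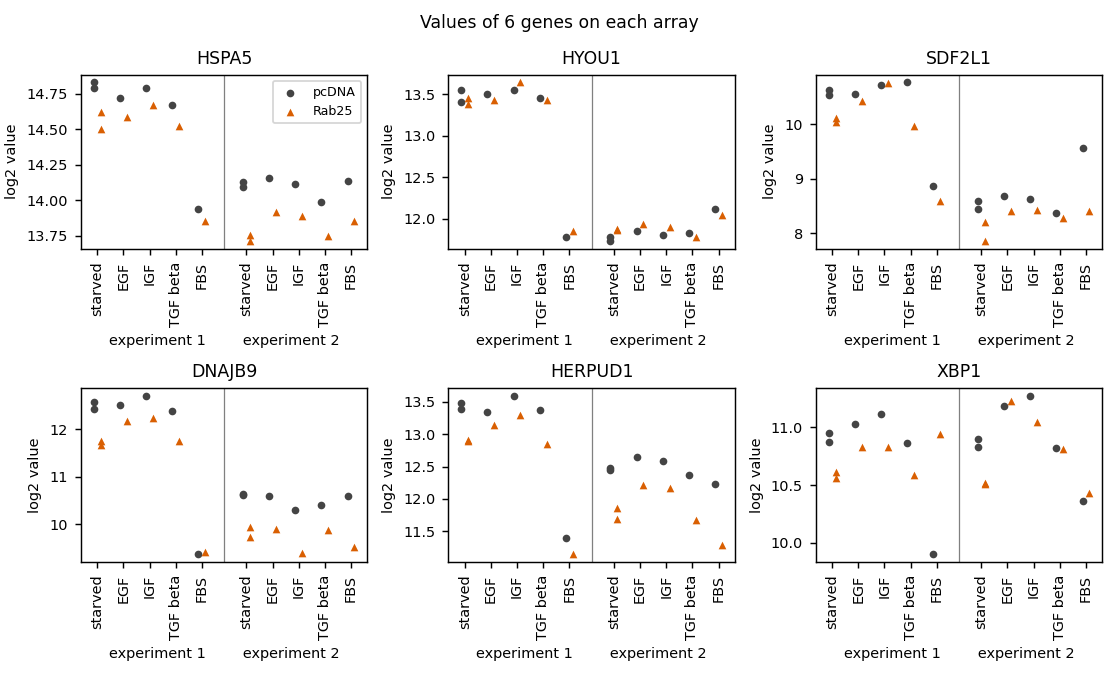
Log2 values of 6 genes on each array, by treatment, with experiment 1 left and experiment 2 right of the grey line (circles pcDNA, triangles Rab25, no averaging). HSPA5, HYOU1, SDF2L1, DNAJB9 and HERPUD1 fell with FBS in experiment 1, and XBP1, which was not called, was at 9.90 on the pcDNA and 10.94 on the Rab25 FBS array.

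Of the 8 lectin chaperones, disulphide isomerases and prolyl isomerases, 7 fell, with a median of −0.50. PDIA4 (ERp72), a disulphide isomerase, lay at 11.64 to 12.29 (median 12.04) without serum and at 10.89 and 10.80 with FBS. Its fall of 1.04 ± 0.09 was the largest of these 8 (limma adjusted p 3.56e-06). PPIB (cyclophilin B), a prolyl isomerase, fell by 0.67, ERP29 by 0.56, the lectin CANX (calnexin) by 0.55, and the disulphide isomerases PDIA3, PDIA6 and P4HB by 0.46, 0.45 and 0.44. CALR (calreticulin), the soluble counterpart of calnexin, lay at 11.72 to 11.96 (median 11.81) without serum and at 11.93 and 11.60 with FBS. One FBS array was inside the serum-free range and the other below it, the change was −0.05 ± 0.09 (limma adjusted p 0.738), and none of its probe sets was called.

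All 6 genes of ER-associated degradation fell, with a median of −0.89. HERPUD1 (HERP), which organises the degradation complex in the membrane, lay at 12.84 to 13.59 (median 13.32) without serum and at 11.39 and 11.14 with FBS. It fell by 1.90 ± 0.11 on the log2 scale (limma adjusted p 1.59e-07), with no overlap. SEL1L, the adaptor of the ligase HRD1, lay at 12.16 to 12.80 (median 12.62) against 11.27 and 11.22, a fall of 1.19 ± 0.08 (limma adjusted p 2.73e-07). DERL2, a membrane protein of the same complex, lay at 11.34 to 11.82 (median 11.68) against 10.51 and 10.19, a fall of 1.22 ± 0.07 (limma adjusted p 2.09e-07). Smaller falls were measured for EDEM1, which draws glycoproteins into degradation (0.59), for the lectin OS9 (0.46) and for DERL1 (0.39), whose FBS and serum-free arrays overlapped.

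The 6 genes of translocation, export and other roles also fell, with a median of −0.66. NUCB2, a calcium-binding protein and precursor of nesfatin, lay at 11.90 to 12.62 (median 12.45) without serum and at 11.02 and 11.16 with FBS, a fall of 1.13 ± 0.12 (limma adjusted p 1.41e-05). The translocon subunits SEC61A1 and SEC61B fell by 0.93 and 0.54. SEC24D, a cargo receptor of COPII vesicles, fell by 0.70, the translocon partner SERP1 (RAMP4) by 0.62 and the translocon-associated SSR1 by 0.51.

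The sensors and signalling genes were the least uniform, with 4 of 6 called and a median of −0.37. EIF2AK3 (PERK) lay at 10.19 to 10.97 (median 10.63) without serum and at 9.40 and 9.58 with FBS. It fell by 1.05 ± 0.13 on the log2 scale (limma adjusted p 4.52e-05), with no overlap. WFS1 (wolframin), an ER membrane protein that regulates calcium and ATF6, lay at 8.70 to 9.65 (median 9.21) against 8.55 and 8.19, a fall of 0.84 ± 0.10 (limma adjusted p 4.84e-05). ATF6 lay at 10.77 to 11.20 (median 11.05) against 10.80 and 10.51, and fell by 0.32 ± 0.08 (limma adjusted p 0.00691). The pcDNA FBS array overlapped only the Rab25 arrays. In each line the FBS array was below the serum-free arrays (11.05 to 11.20 in pcDNA, 10.77 to 11.07 in Rab25 cells). ERN1 (IRE1) lay at 5.68 to 6.14 (median 5.95) against 5.59 and 5.43, close to 5.71, the first quartile of the mean values of all genes. Its fall of 0.42 ± 0.11 (limma adjusted p 0.0108) therefore rests on a dim probe set. Without the Rab25 FBS arrays ATF6 was at −0.26 (limma adjusted p 0.0897) and ERN1 at −0.42 (limma adjusted p 0.0640), no longer called at similar sizes. MBTPS1 (site-1 protease), which cleaves ATF6 in the Golgi, changed by −0.07 ± 0.08 (limma adjusted p 0.560).

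XBP1, the transcription factor spliced by IRE1, had FBS values of opposite sign in the lines in experiment 1. It lay at 10.86 to 11.12 on the 5 serum-free pcDNA arrays and at 9.90 on the pcDNA FBS array, and at 10.56 to 10.83 on the 5 serum-free Rab25 arrays and at 10.94 on the Rab25 FBS array. The difference from the starved mean of the line was −1.01 on the pcDNA array and 0.36 on the Rab25 array. In experiment 2 both were below 0, at −0.50 and −0.09. The Rab25 FBS arrays carried the stromal, macrophage and breast markers described above. The part of these in the XBP1 values and in the difference between the lines was not tested. The joint change was −0.33 ± 0.14 (limma adjusted p 0.0844). It was 0.16 without the pcDNA array, in a fit that draws the pcDNA response from the FBS array of experiment 2 and the Rab25 arrays. Without the Rab25 FBS arrays XBP1 was among the 29 genes called lower. The difference between the lines in the FBS response over both experiments was 0.89 ± 0.20 (limma adjusted p 0.0882) and was not called. It was called with array medians centred, in experiment 1 alone, and without the pcDNA or the Rab25 FBS array of experiment 2, the 1 member called in each. The array reports total XBP1 transcript, not its spliced share.

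Within experiment 1 the lines can be set side by side, with values only since each had 1 FBS array. Against the starved mean of its line, the FBS array was lower for 32 of 33 genes in each line, the exception being CALR (0.08) in pcDNA and XBP1 in Rab25 cells, the median being −0.79 in pcDNA and −0.55 in Rab25 cells, against −0.02 and −0.01 over all genes. These differences were −3.12 in pcDNA and −2.28 in Rab25 cells for DNAJB9, −2.05 and −1.75 for HERPUD1, −1.69 and −1.57 for HYOU1, and −0.87 and −0.71 for HSPA5. The pcDNA array had the larger change in each of these 4 genes. The Rab25 array had the larger fall in others, among them ERP29 (−0.51 in pcDNA and −0.62 in Rab25 cells), OS9 (−0.38 and −0.55), P4HB (−0.40 and −0.48) and DERL2 (−1.19 and −1.25). The Rab25 array carried stromal and other markers, and their part in these differences was not tested.

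In experiment 2, FBS gave another picture. SDF2L1 and HYOU1 rose, ERP29 fell and the other 30 genes were not called, with 8.25% of all genes called (2.91% higher, 5.34% lower). The 3 called were 9.09% of the 33, near the share of all genes, so the number is not particular to these genes. The median change was 0.03, against −0.04 over all genes. SDF2L1 lay at 7.86 to 8.68 (median 8.42) on the 10 serum-free arrays and at 9.57 in pcDNA and 8.42 in Rab25 cells with FBS. The call of SDF2L1 (0.72 ± 0.16, limma adjusted p 0.0150) thus rested on the pcDNA array, 1.06 above its line's starved mean, whereas the Rab25 array was 0.38 above its own and inside the overall range. HYOU1 lay at 11.73 to 11.93 (median 11.84) without serum and at 12.12 and 12.04 with FBS. Both FBS arrays were above all 10 others, as for 2.19% of all genes, and HYOU1 rose by 0.26 ± 0.07 on the log2 scale (limma adjusted p 0.0319). ERP29 lay at 12.01 to 12.18 against 12.02 and 11.66, a fall of 0.24 ± 0.06 (limma adjusted p 0.0191) carried by the Rab25 array.

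Of the genes with the strongest falls in experiment 1, DNAJB9 lay at 9.39 to 10.64 (median 10.12) without serum in experiment 2 and at 10.58 and 9.53 with FBS. HERPUD1 lay at 11.67 to 12.64 (median 12.29) against 12.23 and 11.29. Over both lines, the Rab25 FBS array was near or below the low end in both genes and the pcDNA one inside the range. Against its own line, HERPUD1 was below the serum-free arrays in pcDNA (12.37 to 12.64) and in Rab25 cells (11.67 to 12.21). DNAJB9 was inside the range of each line (10.30 to 10.64 and 9.39 to 9.95). The changes of DNAJB9 and HERPUD1 were −0.18 and −0.35 (limma adjusted p 0.595 and 0.0744). HSPA5 lay at 13.71 to 14.16 (median 13.95) against 14.13 and 13.86, a change of 0.07 (limma adjusted p 0.591). Among the sensors, XBP1 changed by −0.29, ATF6 by −0.08, EIF2AK3 by −0.07 and ERN1 by 0.02, none called. Both FBS arrays were below all 10 others for OS9 and XBP1 (5.01% of all genes). The calls were few and unstable: without the Rab25 FBS arrays there were 2 (3.93% of all genes called), SDF2L1, which rose (1.05, limma adjusted p 0.00657), and XBP1, which fell, while HYOU1 was 0.32 (limma adjusted p 0.0873). With array medians centred, which moved the all-gene median from −0.04 to 0.07, 5 genes rose and none fell. Leaving out the Rab25 FBS array of experiment 2 left 1 call, as did leaving out the first starved pcDNA array of that experiment, and leaving out either FBS array of experiment 1 gave 5. In a fit without 1 FBS array, the response of that line in that experiment is drawn from its other FBS array and from the other line. Such fits, that without the pcDNA FBS array of experiment 2 included, therefore do not show the remaining FBS array alone.

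**Figure D3:**
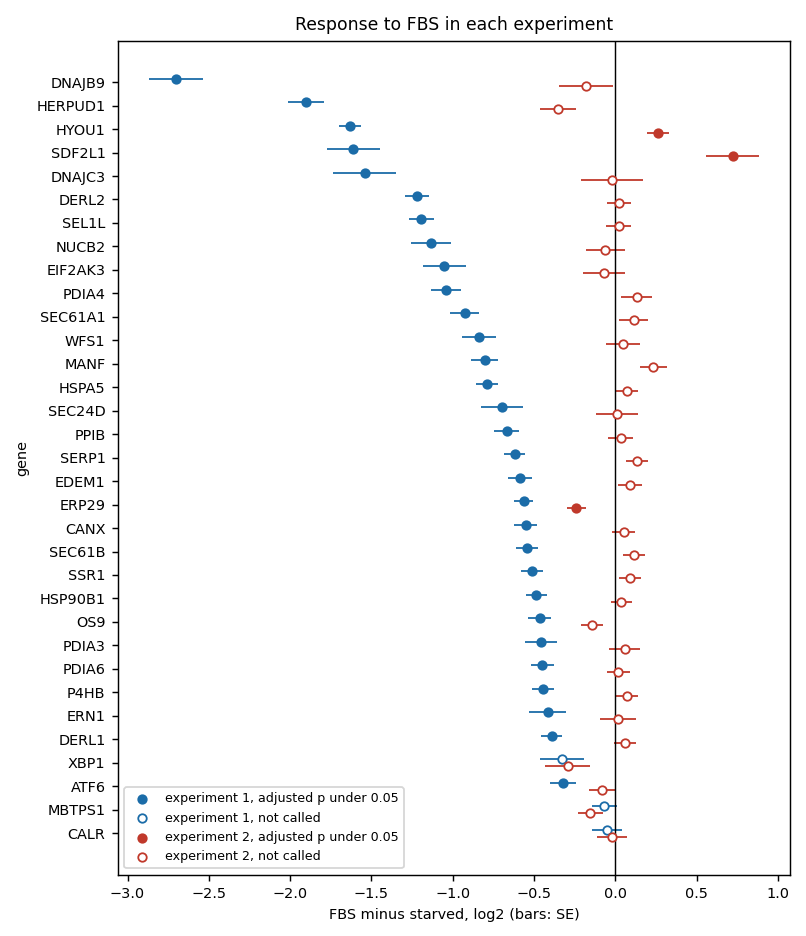
Log2 change with FBS against starved cells over both lines in experiment 1 (blue) and experiment 2 (red), with standard errors and filled circles for an adjusted p under 0.05. In experiment 1, 30 genes fell, down to −2.70 for DNAJB9, and in experiment 2 the values lie between −0.35 for HERPUD1 and 0.72 for SDF2L1.

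The difference between the experiments in the FBS response was itself tested. It was positive for 28 genes and negative for none, with 22.5% of all genes called (9.53% positive, 12.9% negative), and its median was 0.70 against −0.04 over all genes. The largest were DNAJB9 (2.52 ± 0.23, limma adjusted p 2.55e-05), SDF2L1 (2.33 ± 0.23), HYOU1 (1.89 ± 0.10, limma adjusted p 3.31e-07), HERPUD1 (1.55 ± 0.16) and DNAJC3 (1.52 ± 0.27). HSPA5 differed by 0.86 ± 0.09 (limma adjusted p 5.77e-05) and EIF2AK3 by 0.98 ± 0.18 (limma adjusted p 0.00210). ERN1 (0.43, limma adjusted p 0.0670), ATF6 (0.24), XBP1 (0.04), CALR (0.03) and MBTPS1 (−0.09) were not called. Without the Rab25 FBS arrays 27 genes were called, all positive (12.8% of all genes), XBP1 at 0.53 among them. Where the Rab25 FBS arrays alone informed the difference, XBP1 was at −0.46. Both of these fits have 1 FBS array per experiment and take the spread from the other groups. With array weights 18 were called, a count whose share over all genes is not given.

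The starved controls also differed between the experiments. On the 8 starved arrays, 29 genes were lower in experiment 2 than in experiment 1 and none higher, with 32.4% of all genes called (17.4% lower, 15% higher), and medians of −0.66 and 0.01. The same starved arrays enter the FBS responses above, so the results are not independent. SDF2L1 differed by −2.06 ± 0.08 (4.18-fold; limma adjusted p 8.35e-07), DNAJB9 by −1.86 ± 0.06 (3.64-fold), NUCB2 by −1.71 ± 0.09 (3.27-fold) and HYOU1 by −1.63 ± 0.06 (3.09-fold; limma adjusted p 7.15e-07). PDIA4 (−1.32), WFS1 (−1.26), SEL1L (−1.24), EIF2AK3 (−1.10) and HERPUD1 (−1.05) followed, and HSPA5 differed by −0.76 ± 0.06 (1.70-fold; limma adjusted p 1.73e-05). ATF6 passed narrowly (−0.20, limma adjusted p 0.0423) and was lost when 6 of the 8 arrays were left out in turn. MBTPS1 (−0.13), CALR (−0.11), XBP1 (−0.06, limma adjusted p 0.410) and ERN1 (−0.05) were not called.

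The growth factor arrays were lower in experiment 2 as well. All 10 serum-free arrays of experiment 2 lay below all 10 of experiment 1 for 26 genes, as for 4.87% of all genes. From the fit with treatment by experiment terms, which was not run under other scalings for these values, 28 genes were lower in experiment 2 with EGF (21.8% of all genes called), 29 with IGF (24.8%) and 27 with TGF beta (22.9%), with medians of −0.64, −0.73 and −0.68. With FBS only NUCB2 (−0.64) and WFS1 (−0.38) were lower, 7 genes were higher, among them DNAJB9 (0.66) and DERL2 (0.54), and the median was 0.07 (23.8% of all genes called). The 9 called were 27.3% of the 33, near that share. DNAJB9 was at 9.37 in experiment 1 and 10.58 in experiment 2 on the pcDNA FBS arrays, but at 9.43 and 9.53 on the Rab25 ones. The median deviation of the 33 genes from their means over all arrays was 0.18 to 0.60 on the serum-free arrays of experiment 1, −0.30 and −0.36 on its FBS arrays, and −0.44 to −0.12 on the arrays of experiment 2. By this median the FBS arrays of experiment 1 were within the range of experiment 2, but single genes differed. HYOU1 was at 11.78 and 11.85 on the former, inside the 11.73 to 11.93 of the serum-free arrays of the latter. NUCB2 was above that range (11.02 and 11.16 against 10.39 to 10.61). HERPUD1 (11.39 and 11.14 against 11.67 to 12.64) and DERL2 (10.51 and 10.19 against 10.74 to 10.99) were below it. The actin 3′ minus 5′ difference was 0.66 to 0.93 on the serum-free arrays of experiment 2 and 0.76 to 1.17 on those of experiment 1, and its part was not tested.

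Averaged over the experiments with an additive experiment term, 8 genes fell with FBS (17.2% of all genes called, 10.8% lower, 6.43% higher): DNAJB9 (−1.44), HERPUD1 (−1.13), NUCB2 and DERL2 (both −0.60), EIF2AK3 (−0.56), ERP29 (−0.40), XBP1 (−0.31) and OS9 (−0.30). That fit counts the difference between the experiments as spread. With treatment by experiment terms the same averages gave 30 calls (28.1% of all genes). In pcDNA cells alone 3 genes fell (6.75% of all genes called, 4.44% lower, 2.31% higher): XBP1 (−0.76, limma adjusted p 0.00531), HERPUD1 (−1.14) and ERP29 (−0.31). In Rab25 cells 3 also fell (7.72%, 5.08% lower, 2.64% higher): ERP29 (−0.50, limma adjusted p 0.00321), OS9 (−0.34) and HERPUD1 (−1.12). The FBS arrays of Rab25 cells are those with stromal and other markers, whose part in these values was not tested. Several of these calls were fragile when each of the 24 arrays was left out in turn. In pcDNA cells ERP29 lost its call in 19 of the 24 fits and also under quantile normalization and centred medians, HERPUD1 in 7 (values from −2.02 to −0.26), and XBP1 in 1, that without the pcDNA FBS array of experiment 1. In Rab25 cells HERPUD1 lost it in 9 and OS9 in 4, and both with centred medians. With treatment by experiment terms the counts were 25 (19.1% of all genes) and 20 (18.7%). No difference between the lines in the FBS response was called for any of the 33 genes by limma, with 0.209% of all genes called and 2 members at an unadjusted p under 0.05. These averages depended on single arrays. The count of 8 became 3 without the pcDNA FBS array of experiment 1, 30 without that of experiment 2, 5 without the Rab25 FBS array of experiment 1 and 29 without that of experiment 2.

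Between the lines, averaged over all 5 conditions, 8 genes were lower in Rab25 than in pcDNA cells and none was higher, with 24.7% of all genes called (15.5% lower, 9.14% higher). The 8 were 24.2% of the 33, near the 24.7% of all genes called in either direction and above the 15.5% called lower. The number called is thus not particular to these genes. The median of the 33 was −0.17 against −0.01 over all genes. The Rab25 average includes both Rab25 FBS arrays, which carried stromal, macrophage, breast and adipocyte markers. Without them it cannot be formed over all 5 conditions, and the part of those markers was not tested. WFS1 had the largest difference. On the starved arrays WFS1 lay at 9.64, 9.65, 8.20 and 8.29 in pcDNA cells (the first pair from experiment 1) and at 8.85, 8.71, 7.60 and 7.69 in Rab25 cells. Within each experiment the lines did not overlap, and over all conditions the difference was −0.71 ± 0.09 (1.64-fold; limma adjusted p 2.79e-05). DERL1 lay at 11.79, 11.90, 11.49 and 11.53 in starved pcDNA cells and at 11.28, 11.35, 11.21 and 11.09 in starved Rab25 cells, with a difference of −0.39 ± 0.06 over all conditions (limma adjusted p 0.000182). HERPUD1 lay at 13.39, 13.49, 12.45 and 12.48 against 12.89, 12.90, 11.85 and 11.69, a difference of −0.50 ± 0.15 (limma adjusted p 0.0245).

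The other 5 were SEC61A1 (−0.39), EIF2AK3 (−0.36), PDIA3 (−0.31), SERP1 (−0.29) and ERP29 (−0.13). With each array left out in turn, EIF2AK3 lost its call in 14 of 24 fits, ERP29 in 11, HERPUD1 in 6 and SEC61A1 in 4. EIF2AK3 and ERP29 lost it under quantile normalization, these and HERPUD1, SEC61A1 and SERP1 with centred medians, and ERP29 in each experiment alone. HSPA5 (−0.21, limma adjusted p 0.0850), ATF6 (−0.13), XBP1 (−0.05) and ERN1 (−0.04) were not called, nor was DNAJB9 (−0.61 ± 0.28, limma adjusted p 0.127). In 12 genes Rab25 was below pcDNA in all 10 combinations of condition and experiment, as for 9.97% of all genes: WFS1, HSPA5, PDIA3, PDIA6, ERP29, HERPUD1, SEL1L, DERL1, DERL2, SERP1, SEC61B and SEC61A1. None was above in all 10. The range over the 10 was −0.93 to −0.36 for WFS1 and −0.35 to 1.05 for XBP1. With treatment by experiment terms 20 genes were lower (32.3% of all genes called), and with array medians centred 3. The count became 20 without the pcDNA FBS array of experiment 1, 16 without the Rab25 FBS array of experiment 2, and 4 without the pcDNA IGF array of experiment 1 or the Rab25 IGF array of experiment 2. The actin 3′ minus 5′ difference overlapped between the lines (0.67 to 1.17 in pcDNA, 0.63 to 1.07 in Rab25).

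**Figure D4:**
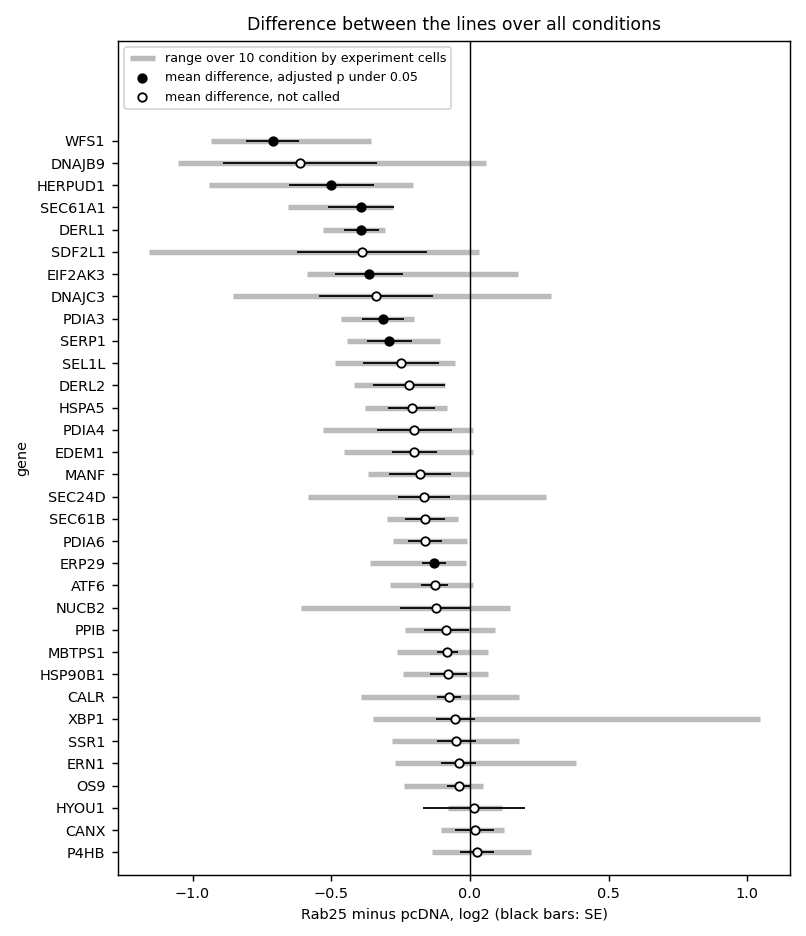
Rab25 minus pcDNA difference of each gene in log2, averaged over all conditions (circles, filled for an adjusted p under 0.05, black bars SE), with grey bars from the lowest to the highest difference among the 10 combinations of condition and experiment. WFS1 is lowest at −0.71 and its grey bar stays below 0, while that of XBP1 reaches from −0.35 to 1.05. The FBS combinations use the Rab25 arrays that carried stromal and other markers.

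In starved cells alone 2 genes were lower in Rab25 cells (14.8% of all genes called, 9.24% lower, 5.56% higher), WFS1 (−0.73 ± 0.16, limma adjusted p 0.00457) and DERL1 (−0.44 ± 0.10, limma adjusted p 0.00868). In this fit the 2 were 6.06% of the 33, below the share of all genes, but the share depended on the terms fitted. The median of the 33 was −0.23. EIF2AK3 (−0.46), XBP1 (−0.34, limma adjusted p 0.0583), HSPA5 (−0.31), ATF6 (−0.17) and ERN1 (−0.15) were not called. With treatment by experiment terms 21 genes were lower, 63.6% of the 33 against 24.2% of all genes called. Without the Rab25 FBS arrays 5 were lower, a count whose share over all genes is not given. The count also moved when the pcDNA FBS array of experiment 1 was left out.

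Fewer calls were made with the purified growth factors. With EGF, none of the 33 and none of all 11940 genes was called by limma over both experiments (0% of all genes), with 811 genes and 1 member at an unadjusted p under 0.05. That member was XBP1 (0.35 ± 0.10, limma adjusted p 0.503), followed by OS9 (−0.09) and HERPUD1 (0.19). Within the experiments none was called either, at 0.184% of all genes in experiment 1 and 0.653% in experiment 2, with 1 and 2 members at an unadjusted p under 0.05. In experiment 1 the lowest p values were those of SEL1L (0.22), DNAJC3 (0.38) and NUCB2 (0.22), and in experiment 2 those of XBP1 (0.52, limma adjusted p 0.149), HERPUD1 (0.31) and HSPA5 (0.12). The difference between the experiments was called for none of the 33 (0.0838% of all genes; 1 member at an unadjusted p under 0.05 in limma).

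With TGF beta, none was called over both experiments (1.6% of all genes), in experiment 1 (1.29%) or in experiment 2 (2.99%), and no member had an unadjusted p under 0.05 in any of the 3 limma tests. CALR (0.11), SEC24D (−0.19) and EIF2AK3 (−0.18) had the lowest p over both. PDIA4 (0.20) led in experiment 1 and EIF2AK3 (−0.24) in experiment 2, and no difference between the experiments was called for the 33 (0.402% of all genes; none at an unadjusted p under 0.05 in limma).

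With IGF, 4 genes rose and none fell in experiment 1, with 9.97% of all genes called (4.18% higher, 5.8% lower), and the median of the 33 was 0.17 against −0.003 over all genes. The 4 were 12.1% of the 33, near the share called in either direction and above the share called higher. DERL1 rose by 0.34 ± 0.07 (limma adjusted p 0.00598), SEC61A1 by 0.31 (limma adjusted p 0.0437) and SEL1L by 0.26 (limma adjusted p 0.0444). DNAJC3 lay at 9.19 and 9.51 on the starved pcDNA arrays and at 8.42 and 8.93 on the starved Rab25 arrays of experiment 1, and with IGF at 10.05 in pcDNA and 9.62 in Rab25 cells. Each IGF array was above the starved arrays of its line, and DNAJC3 rose by 0.82 ± 0.19 (limma adjusted p 0.0166). SEC61A1 and SEL1L lost their calls in 13 and 11 of the 24 fits with 1 array left out. The 4 calls were lost without either IGF array of experiment 1, became 7 without the pcDNA FBS array of that experiment and 10 with array medians centred.

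In experiment 2 none was called with IGF (2.34% of all genes; 3 members at an unadjusted p under 0.05), with XBP1 at 0.47 (limma adjusted p 0.125), HERPUD1 at 0.27 and DNAJB9 at −0.39. The difference between the experiments was not called for any gene of the 33 by limma (1.42% of all genes; 7 at an unadjusted p under 0.05), with DNAJB9 at −0.76, DNAJC3 at −0.84 and DERL1 at −0.28. Over both experiments none was called (2.71% of all genes; 2 at an unadjusted p under 0.05), XBP1 being at 0.35 (limma adjusted p 0.0718). With treatment by experiment terms 3 rose (10.9% of all genes called), DERL1 (0.20), XBP1 (0.35) and HERPUD1 (0.27). No difference between the lines was called for EGF, IGF or TGF beta (0% of all genes each), with no member at an unadjusted p under 0.05 in any of them.

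Members with and without an ERSE or ERSE-II were set side by side. With FBS in experiment 1, 8 of the 10 with an element fell, with a median of −0.59, and 19 of the 20 whose windows held neither, with a median of −0.74. The counts were 9 of 10 and 17 of 20 without the Rab25 FBS arrays. Between the starved cells of the experiments the counts were 8 of 10 and 18 of 20, with medians of −0.69 and −0.67. HYOU1, HERPUD1 and SDF2L1, the 3 genes with ERSE-II, fell by 1.63, 1.90 and 1.61 with FBS in experiment 1, and CALR and XBP1, both with an ERSE, were not called in either comparison. The difference between these sets was not tested.

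The other probe sets of the members were examined in fits over all 19415 probe sets. Of 31 probe sets of 17 genes, 22 fell and none rose with FBS in experiment 1 (14.3% of all probe sets lower), with a median of −0.68. Without the Rab25 FBS arrays that median was −0.70. The difference between the experiments was positive for 20 of 31 and negative for none (7.48% of all probe sets positive). Its median was 0.63, and 0.62 without the Rab25 FBS arrays. In starved cells 23 were lower in experiment 2 (13.9% of all probe sets lower). Between the lines 4 of 31 were lower in Rab25 cells, below the share of 14.5% of all probe sets.

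Of 98 other genes of the pathway, listed by role, 86 were measured. With FBS in experiment 1, 50 fell and 6 rose (all genes 17.1% lower, 17% higher), among them 8 fallers and 1 riser of the 9 genes of the PERK and ATF4 arm. The changes were −3.23 ± 0.17 for DDIT3 (CHOP), a transcription factor linked to cell death under stress, −2.34 ± 0.11 for CHAC1, a glutathione-degrading enzyme, and −1.86 ± 0.11 for PPP1R15A (GADD34), which restores translation. Without the Rab25 FBS arrays 49 were lower and 3 higher, with DDIT3 at −3.52, CHAC1 at −2.70 and PPP1R15A at −2.19. With all arrays kept, 16 of 22 genes of ER entry and 11 of 23 of ER folding fell in experiment 1. The same held for 7 of 13 genes of degradation and 5 of 10 of COPII export. In experiment 2, 8 fell and 3 rose (all genes 5.34% lower, 2.91% higher), 6 of the fallers being in the PERK and ATF4 arm, with CHAC1 at −1.57, PPP1R15A at −0.88 and ATF4 at −0.49. From pcDNA cells alone 7 were lower and none higher, 5 of them in that arm. Between starved cells of the experiments 51 were lower and 7 higher in experiment 2 (all genes 17.4% lower, 15% higher), with DDIT3 at −2.19 and ERO1B, an oxidase that recharges disulphide isomerases, at −1.86. Between the lines 18 were lower and 9 higher in Rab25 cells over all conditions, against 15.5% and 9.14% of all genes, so nothing particular to these 86 genes is read from the count. GANAB and PRKCSH, the subunits of glucosidase II, were higher (0.37 each), and the disulphide isomerase PDIA5 was lower (−0.41). With IGF over both experiments CHAC1 rose by 1.51 ± 0.17 (limma adjusted p 0.000657) and EIF2S1 by 0.22. In experiment 1 CHAC1 (1.05), ERO1A (0.55) and UGGT1 (0.50) rose with IGF, and in experiment 2 CHAC1 (1.975), DDIT3 (0.87) and SRP19 (0.36). CHAC1 also rose with EGF in experiment 2, by 1.475 ± 0.11 (limma adjusted p 2.87e-05).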

How the data were processed

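RNA of each of 24 samples was measured on 1 Affymetrix expression array. The values that the authors deposited are log2 levels, 1 per probe set, and the submitters' processing notes name MAS5 and RMA with no version, role or order. Array medians were 7.02 to 7.35, and no count or depth applies to arrays, whose number limits the precision. Of 22930 probe sets, 524 controls, 125 with several symbols and 2866 with none were left out. The remaining 19415 gave 11940 genes, each by its probe set of highest mean. No value was rescaled.

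Groups came from the labels. With R 4.3.3 and limma 3.58.1 (lmFit, eBayes, Benjamini-Hochberg over all 11940 genes, threshold 0.05), 10 groups and an additive experiment term were fitted. Responses within an experiment and their differences came from a fit with treatment by experiment terms, and starved cells were compared between experiments on their 8 arrays. The fits were tested on simulated data. The experiment number pairs arrays, per the labels: deviations of the 45 pairs of groups correlated at 0.0924 to 0.858 over genes (median 0.658). Nothing in the labels ties each array to a separate culture, though the design text calls the samples independent, so p-values measure the spread between these arrays.

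Members and lists were chosen with earlier results of these data known. Named are all called members, the 3 of lowest p where fewer were called, and HSPA5, XBP1, ATF6, ERN1 and EIF2AK3. Called genes of the other pathway lists were named from the 3 of lowest p, in the comparisons described for those lists. Alternatives were the fit without the experiment term, quantile normalization, centred medians, array weights, the median over all probe sets of each gene, a trended robust prior, the brightest genes only (lowest 40% left out, 7164 kept), groups or experiments alone, and each array left out. The treatment by experiment terms for other contrasts, and the FBS response without the Rab25 FBS arrays, were chosen after seeing the data.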

Additional observations from a re-analysis of the deposited data

Results flagged for a closer look

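The response to FBS differed between the experiments, by the limma test of the difference itself, for 28 of the 33 genes, as log2 values of experiment 2 minus experiment 1. They were DNAJB9 2.52, SDF2L1 2.33, HYOU1 1.89, HERPUD1 1.55, DNAJC3 1.52 and MANF 1.04 among chaperones and HERP, with HSPA5 at 0.86 and HSP90B1 at 0.52. In degradation they were DERL2 1.25, SEL1L 1.22, EDEM1 0.68, DERL1 0.45 and OS9 0.32. Among isomerases and lectins they were PDIA4 1.17, PPIB 0.70, CANX 0.60, PDIA3 0.51, P4HB 0.51, PDIA6 0.47 and ERP29 0.33. In translocation, export and other roles they were NUCB2 1.07, SEC61A1 1.04, SERP1 0.75, SEC24D 0.71, SEC61B 0.66 and SSR1 0.60, and among sensors and signalling genes EIF2AK3 0.98 and WFS1 0.89. Of the 8 response differences tested between lines or experiments, only this one had calls among the 33 genes. The protocol's exposure times and the batch change together between the experiments, and their parts cannot be told apart.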

How the results depend on the processing

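Of 232 counts of called members under other settings, leave-one-array-out aside, 173 were within 1.5 times the reported count and 59 were not. Without the replicate block (no experiment term) the counts fell to 1 between the lines, 0 between starved lines, 1 for FBS in pcDNA, 0 for FBS in Rab25 and 0 for FBS over both. With treatment by experiment terms they were 20, 21, 25, 20 and 30, and 3 for IGF over both. With centred medians they were 3 between the lines, 1 for FBS in Rab25, 4 for FBS over both, 1 for its line difference, 5 for FBS in experiment 2, 1 for IGF over both, 10 in experiment 1 and 1 in experiment 2. Array weights gave 17 between starved lines, 0 for FBS in either line, 2 over both, 18 for its difference between experiments, 0 in experiment 2, and 1 each for EGF and IGF over both and in experiment 2. Groups compared alone gave 21 between starved lines, 0 for FBS in either line, 4 over both, 1 for EGF in experiment 2, and for IGF 3 over both, 1 for the difference between experiments, 8 in experiment 1 and 1 in experiment 2. Experiment 1 alone gave 15 between the lines, 13 between starved lines, 28 (all lower) and 24 (1 higher, 23 lower) for FBS in pcDNA and Rab25, 31 over both, 1 for its line difference and 4 for IGF. Experiment 2 alone gave 17 and 8 lower between the lines and starved lines, 1 higher for FBS in pcDNA, 1 lower in Rab25, 3 over both (1 higher, 2 lower), and 1 higher each for EGF and IGF. Without both Rab25 FBS arrays 5 were called between starved lines, 5 for FBS in pcDNA and 1 for IGF. Quantile normalization and leaving out the lowest 40% of genes each gave 1 for IGF over both, the trended robust prior 8 for IGF in experiment 1, and the median of probe sets 4 between starved lines. The causes were not tested.

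Leaving out each array in turn gave 28 to 31 for FBS in experiment 1, 25 to 28 for the difference between experiments, 28 to 29 between starved experiments, 1 to 5 for FBS in experiment 2, 3 to 30 for FBS over both, 0 to 26 in pcDNA, 1 to 14 in Rab25 and 0 to 1 for the line difference. The lines gave 4 to 20, starved lines 2 to 9, and IGF 0 to 7 in experiment 1 and 0 to 1 in experiment 2, over both and for the difference between experiments. EGF in experiment 2 gave 0 to 1, and the other EGF, IGF and TGF beta results 0 to 0. FBS in pcDNA had 0 without its experiment 1 array and 26 without its experiment 2 array, and FBS in Rab25 had 1 and 14.

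Signs turned for 5 genes. For ERN1 the line difference was 0.0265 with centred medians and −0.0856 to 0.00452 over arrays left out, and the difference between starved experiments was 0.00445 with centred medians and −0.134 to 0.0197 over arrays left out. For XBP1 the line difference was 0.0148 with centred medians and −0.116 to 0.0115 over arrays left out, the FBS difference between experiments was −0.456 to 0.527 and the FBS response of experiment 1 −0.82 to 0.163. DNAJC3 had −0.0235 to 0.791 with EGF in experiment 1. SEL1L had −0.0125 with TGF beta in experiment 1 by the median of probe sets, and DERL2 0.024 with FBS in experiment 2 alone.

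Scaling moved the all-gene split of higher and lower calls. It was 1091 and 1853 between the lines, 1477 and 1465 after quantile normalization and 2109 and 1084 with centred medians. Starved lines gave 664 and 1103, then 940 and 893, then 1002 and 699. FBS over both gave 768 and 1289, then 1077 and 1023, then 1383 and 738; in pcDNA 276 and 530, then 448 and 504, then 409 and 398; in Rab25 315 and 607, then 442 and 419, then 730 and 265; in experiment 2 348 and 637, then 565 and 514, then 819 and 354. With centring alone, the FBS difference went from 1138 and 1544 to 1711 and 924 (all-gene median −0.04 to 0.08), starved experiments from 1794 and 2079 to 2393 and 1651, and IGF in experiment 1 from 499 and 692 to 845 and 453. No member called in the report turned its sign under these scalings.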
